A study of Mus musculus with 12 samples.

Results

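ATF4, CHOP and 7 related transcription factors of the activating transcription factor (ATF) group were followed at the level of mRNA. They were taken by a list of symbols, Atf4, Atf3, Atf5, Ddit3, Jdp2, Atf1, Atf2, Atf7 and Batf3, with no threshold on a measured value. They are 9 of the 53801 gene identifiers in the count files. All 9 passed the filter on low counts, which left 15828 genes tested. Poly(A) RNA was sequenced from C2C12, a mouse myoblast line, in 4 groups of 3 libraries. Control cells received DMSO, the solvent, or thapsigargin (Thap) for 6 h. Cells with Cebpg knocked down, named Sh2 in the sample titles, received the same treatments for the same time. The knockdown is thus 1 labelled population. No construct is described for the control cells, and the growth protocol names HeLa cells where the source field names C2C12. The labels do not state whether the replicates are separate cultures, and the p-values below rest on the spread between libraries, which may be technical.

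The proteins share a basic leucine zipper, a DNA-binding segment followed by a coiled coil through which they form dimers. When the endoplasmic reticulum (ER) is stressed, the kinase PERK phosphorylates the translation factor eIF2alpha, most translation slows, and the Atf4 mRNA is translated more because of short upstream reading frames. ATF4 then activates genes of amino acid supply and further factors, among them Ddit3, which encodes CHOP, and Atf3. ATF4 does not work alone and pairs with C/EBP proteins, including C/EBP gamma, the product of Cebpg, on composite C/EBP-ATF response elements (CARE). Thapsigargin blocks the SERCA calcium pump of the ER and so sets this pathway in motion. The comparisons ask how far the mRNA of each factor rises under this stress and how that rise differs when Cebpg is knocked down.

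The promoters of the members were searched because the study concerns elements bound jointly by ATF4 and C/EBP gamma. Only those with a match to a motif named below are shown. Atf4, Atf5, Atf1, Atf2, Atf7 and Batf3 also rose with thapsigargin but had no match and are not shown. Sequences are from RefSeq on GRCm38.p6, which lists 12 start sites for the 9 members, and the 250 bases before each start were searched on both strands. The motifs were the CARE core TGATGNAA, the cyclic AMP response element (CRE) TGACGTCA, the ER stress response element (CCAAT and CCACG with any 9 bases between them), the unfolded protein response element TGACGTGG, the AP-1 element TGANTCA and the C/EBP palindrome TTGCGCAA. A CARE core was found before Atf3, 110 to 103 bases before the start on the minus strand of the promoter, and before 1 of the 3 start sites of Jdp2, 33 to 26 bases before it. An AP-1 element lay 242 to 236 bases before the start of Ddit3. The other 9 start sites of members held none of the 6 motifs in this window, and the 3 matches do not overlap each other or another motif. Among all 32851 RefSeq promoters of the same length 3.45% held a CARE core and 6.75% an AP-1 element. The CRE was found in 1.55%, the unfolded protein response element in 0.563%, the C/EBP palindrome in 0.164% and the ER stress response element in 0.113%. A match describes letters in a window and is not a bound site. The sequences below run 5′ to 3′ along the gene's strand, with the matched letters in capitals. Atf3 lies on the minus strand and the others on the plus strand, and for Jdp2 only the 30 bases around the match are given.
Atf3, chr1:191183334-191183583: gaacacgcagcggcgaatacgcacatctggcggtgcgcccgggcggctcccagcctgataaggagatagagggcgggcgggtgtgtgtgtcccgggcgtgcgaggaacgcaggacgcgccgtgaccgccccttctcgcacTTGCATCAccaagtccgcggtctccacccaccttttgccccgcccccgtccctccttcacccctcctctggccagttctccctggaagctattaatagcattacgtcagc
Ddit3, chr10:127290543-127290792: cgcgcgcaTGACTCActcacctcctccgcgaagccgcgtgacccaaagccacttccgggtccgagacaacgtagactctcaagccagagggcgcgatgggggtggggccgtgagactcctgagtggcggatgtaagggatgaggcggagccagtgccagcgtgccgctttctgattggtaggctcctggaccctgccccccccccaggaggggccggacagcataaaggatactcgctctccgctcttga
Jdp2, chr12:85599372-85599401: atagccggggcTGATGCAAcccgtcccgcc

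Libraries held 29.4 to 47.7 M reads assigned to genes. Levels are counts per M reads scaled by the TMM method of edgeR (CPM), as the mean ± SD with n = 3 libraries unless each library is given. Within groups the lowest correlation of log2 CPM between libraries across genes was 0.993, and no library stood apart from its group. Cebpg, the targeted gene, was at 51.5 to 60.6 CPM in control DMSO libraries and 211 to 219 CPM with thapsigargin. In the knockdown it was at 3.74 to 5.18 CPM in DMSO and 5.29 to 6.11 CPM with thapsigargin. The myoblast markers were all detected, with Myod1 at 151 ± 4.65 CPM and Des at 1186 ± 68.2 CPM in control DMSO cells. Summed over the 6 of them the level was 7084 to 7644 CPM in control DMSO libraries, 4693 to 4749 CPM in control Thap, 9623 to 10885 CPM in knockdown DMSO and 7389 to 7894 CPM in knockdown Thap, values led by Vim. Myod1 was at 107 ± 1.96 CPM in control Thap, 124 ± 5.59 in knockdown DMSO and 110 ± 7.87 in knockdown Thap cells. Des was at 784 ± 26.2, 764 ± 46.3 and 545 ± 12.5 CPM in that order. Of the 6, Myf5, Cdh2 and Vim had higher means in knockdown than in control cells in both treatments. Summed levels of leukocyte markers (6 genes) were 2.25 to 6.99 CPM and those of adipocyte markers (5 genes) 0.0286 to 0.309 CPM over all libraries. Epithelial markers (6 genes) summed to 0.347 to 0.466 CPM in control DMSO, 3.10 to 3.63 CPM in control Thap, 1.21 to 1.62 CPM in knockdown DMSO and 7.58 to 9.08 CPM in knockdown Thap. Endothelial markers (5 genes) summed to 4.19 to 5.11, 27.5 to 32.3, 5.90 to 6.95 and 18.4 to 21.1 CPM in the same order. Of these markers, Ptprc, Adgre1 and Cd3e of leukocytes, Epcam and Krt18 of epithelium and Cidec and Lep of adipocytes were at 0 in the control DMSO group. The other listed markers, including all endothelial ones, had reads there, with Cd68 of leukocytes at 3.83 ± 0.273 CPM. Krt18 reached 3.92 ± 0.627 CPM in knockdown Thap cells. The part of these markers in the results below was not tested.

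Atf4 had the highest level per kb of exon among the members in each of the 4 groups, and its mRNA rose with thapsigargin in both cell populations. Its gene (ENSMUSG00000042406, chromosome 15, 80255184 to 80257541 on the plus strand of GRCm38) shares no exon with another gene. The control DMSO libraries held 414, 437 and 421 CPM and the control Thap libraries 1753, 1778 and 1742 CPM. The knockdown libraries held 497, 494 and 478 CPM in DMSO and 1252, 1286 and 1257 CPM with thapsigargin. No group overlapped another, and the order from low to high was control DMSO, knockdown DMSO, knockdown Thap and control Thap. In bulk RNA a lower level per cell and fewer cells that express a gene cannot be told apart. Thapsigargin raised Atf4 4.15-fold in control cells (log2 change 2.05, SE 0.04, adjusted p = 4.13e-29 by edgeR's quasi-likelihood test with Benjamini-Hochberg adjustment) and 2.58-fold in knockdown cells (1.37, SE 0.04, adjusted p = 3.82e-24). The difference between these effects was -0.68 (SE 0.06, adjusted p = 1.65e-11). With the knockdown Atf4 was slightly higher in DMSO (0.21, SE 0.04, adjusted p = 5.97e-05) and was 72.0% of the control level with thapsigargin (-0.47, SE 0.04, adjusted p = 4.37e-12). In CPM the rise was 1334 in control and 776 in knockdown cells, so that the knockdown cells gained 58.1% of the control gain.

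Ddit3 encodes CHOP, a factor of the C/EBP family with an altered DNA-binding region, best known for promoting death under lasting ER stress. The gene (ENSMUSG00000025408, chromosome 10, 127290774 to 127296288, plus strand) shares 10.9% of its exon bases with other annotated genes. A second identifier with the symbol Ddit3 lies wholly within its exons and held 0 reads in all libraries. How the authors counted reads on shared bases is not known, so its level is uncertain to that extent. Ddit3 was at 17.3, 16.8 and 16.3 CPM in control DMSO and 17.0, 19.4 and 17.6 CPM in knockdown DMSO libraries, and these ranges overlapped. With thapsigargin it was at 398, 410.4 and 408 CPM in control and 181, 198 and 200.3 CPM in knockdown libraries, with no overlap. Thapsigargin raised it 24.1-fold in control cells (4.59, SE 0.06, adjusted p = 5.79e-35 by edgeR) and 10.7-fold in knockdown cells (3.42, SE 0.06, adjusted p = 1.97e-31). Between the cell populations the effects differed by -1.17 (SE 0.08, adjusted p = 6.94e-14). In DMSO the knockdown did not change Ddit3 beyond the threshold (0.10, 95% interval -0.03 to 0.23, adjusted p = 0.178), whereas with thapsigargin the knockdown level was 47.7% of control (-1.07, SE 0.05, adjusted p = 1.16e-19). The gain in knockdown cells was 175 CPM against 389 CPM in control cells, or 45.1%.

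Atf3, a stress-induced member that often acts as a repressor, had the largest fold response to thapsigargin in control cells among the 8 members above the limit of detection. It lies on chromosome 1 (ENSMUSG00000026628, 191170296 to 191218039, minus strand) and shares no exon. Control DMSO libraries held 4.69, 4.78 and 4.65 CPM and knockdown DMSO libraries 9.77, 11.8 and 10.4 CPM. Control Thap libraries held 223, 231 and 228 CPM and knockdown Thap libraries 143, 146 and 148 CPM. The 4 groups did not overlap, and the knockdown was the higher population in DMSO and the lower one with thapsigargin. Thapsigargin raised Atf3 48.2-fold in control cells (5.59, SE 0.06, adjusted p = 1.05e-35 by edgeR), rank 289 from the top of the 15828 genes tested. In knockdown cells the rise was 13.6-fold (3.77, SE 0.06, adjusted p = 6.12e-32). The 2 rises differed by -1.82 (SE 0.09, adjusted p = 7.13e-17). Behind it stood a knockdown DMSO level 2.26 times that of control (1.18, SE 0.08, adjusted p = 3.93e-14) and a Thap level that was 64.0% of control (-0.64, SE 0.05, adjusted p = 4.91e-14). In CPM the knockdown cells gained 60.6% of the control gain, and for Atf4 this share was 58.1%.

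**Figure D1:**
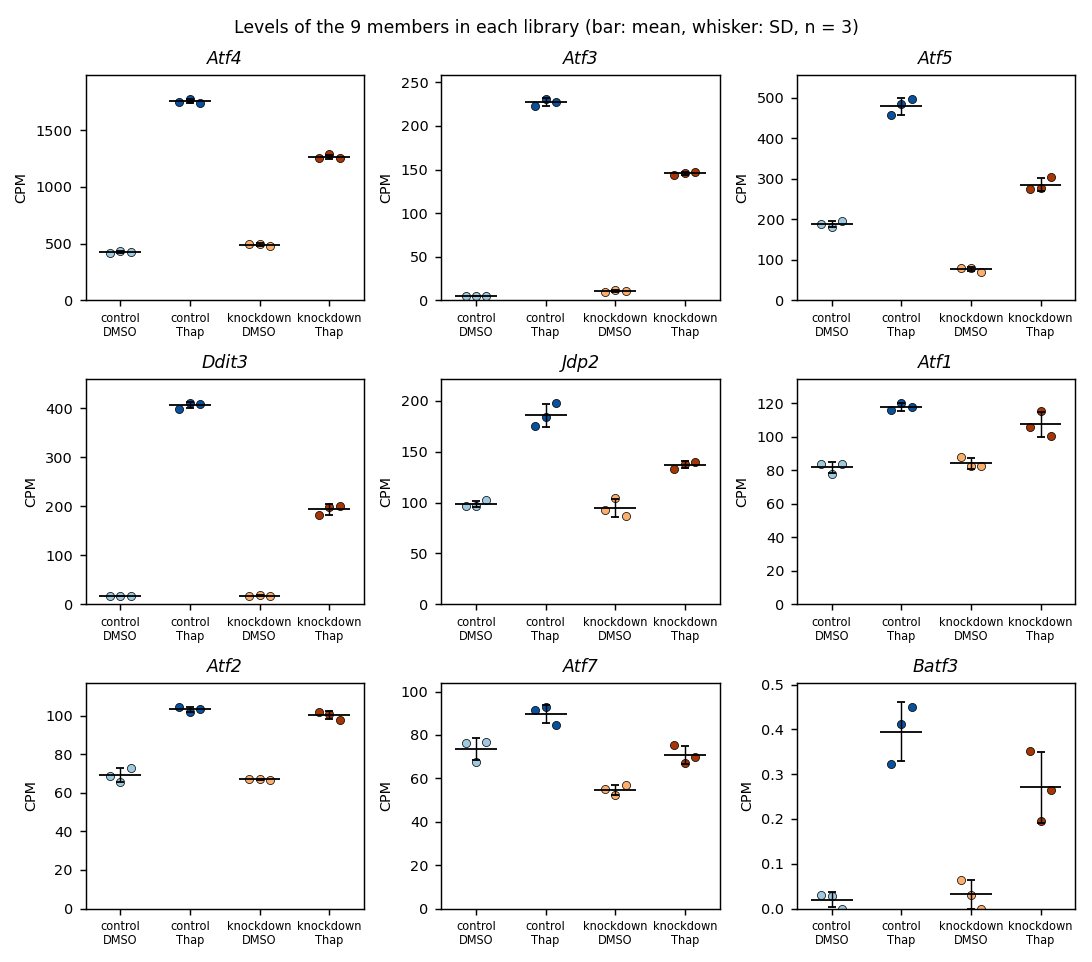
Level of each member in CPM (y axis, linear from 0, own scale per panel) for the 3 libraries of each of 4 groups (x axis), points being libraries, bars means and whiskers SDs. Each member has its highest mean in control Thap libraries, Atf5 and Atf7 are lower in knockdown DMSO than in control DMSO libraries, and Batf3 stays below 0.5 CPM.

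Atf5, which encodes a close relative of ATF4 that is also under control of upstream reading frames and supports the mitochondrial stress response, moved in another way. Its gene (ENSMUSG00000038539, chromosome 7, 44812256 to 44816658, minus strand) shares 4.1% of exon bases with genes of the opposite strand, Nup62 and Il4i1. Libraries of control DMSO held 189, 179 and 196 CPM and those of knockdown DMSO 78.9, 79.9 and 69.9 CPM. With thapsigargin the control libraries held 456, 483 and 498 CPM and the knockdown libraries 276, 277 and 304 CPM. The knockdown was below control in both treatments with no overlap, and the knockdown Thap level exceeded that of unstressed control cells. In DMSO the knockdown lowered Atf5 to 40.5% of control (-1.30, SE 0.05, adjusted p = 3.63e-19 by edgeR), and with thapsigargin to 59.6% (-0.75, SE 0.05, adjusted p = 3.67e-14). The fold rise with thapsigargin was 2.55 in control cells (1.35, SE 0.05, adjusted p = 4.22e-21) and 3.75 in knockdown cells (1.91, SE 0.05, adjusted p = 3.70e-24). The difference of effects was thus positive, at 0.56 (SE 0.07, adjusted p = 2.42e-07). The gain in CPM was nevertheless smaller in knockdown cells, 209 against 291 CPM. Atf5 was the only member of the 9 whose fold response was called larger with the knockdown.

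Jdp2, a repressor closely related to Atf3 that dimerises with JUN, has its gene on chromosome 12 (ENSMUSG00000034271, 85599027 to 85639878, plus strand) and shares 7.7% of exon bases with an antisense transcript. It was at 96.9, 96.6 and 102 CPM in control DMSO and 92.3, 104 and 86.8 CPM in knockdown DMSO libraries, which overlapped. With thapsigargin it was at 175, 184 and 198 CPM in control and 133, 138 and 139.9 CPM in knockdown libraries, which did not. The rise was 1.88-fold in control cells (0.91, SE 0.05, adjusted p = 5.21e-16 by edgeR) and 1.45-fold in knockdown cells (0.54, SE 0.05, adjusted p = 2.90e-10), with a difference of -0.38 (SE 0.08, adjusted p = 0.000207). Scaled by library totals alone, the difference was -0.22 (adjusted p = 0.0198). With thapsigargin the knockdown level was 73.9% of control (-0.44, SE 0.05, adjusted p = 2.25e-08). In DMSO it did not pass (-0.06, 95% interval -0.17 to 0.05, adjusted p = 0.367). It was called in 1 of 20 alternatives, the one that leaves out knockdown DMSO replicate 2 (-0.14, adjusted p = 0.0294), and over all of them the adjusted p ran from 0.0294 to 0.98. Knockdown cells gained 49.1% of the control gain in CPM, a share near that of Ddit3.

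Atf1, Atf2 and Atf7 encode broadly expressed factors, ATF1 being a relative of CREB, and ATF2 and ATF7 partners of JUN that are activated by stress kinases. They are not known as induced genes of ER stress, and their changes were small. Atf1 (chromosome 15, ENSMUSG00000023027, 100227819 to 100261244, plus strand) was at 77.9 to 83.6 CPM in control DMSO, 116 to 120.1 CPM in control Thap, 82.3 to 87.9 CPM in knockdown DMSO and 101 to 115 CPM in knockdown Thap, and only the DMSO ranges overlapped. It rose with thapsigargin by 0.53 (SE 0.05, adjusted p = 2.12e-11 by edgeR) in control and 0.35 (SE 0.05, adjusted p = 2.24e-07) in knockdown cells. The difference of -0.18 just passed (SE 0.07, adjusted p = 0.0443) and was called in 10 of 19 alternatives, with adjusted p from 0.00884 to 0.822. It was lost without control DMSO replicate 1 or 2, control Thap replicate 2 or 3, knockdown DMSO replicate 1, or knockdown Thap replicate 1 or 3 (adjusted p = 0.0513 to 0.157). With thapsigargin the knockdown level was 91.0% of control (-0.14, SE 0.05, adjusted p = 0.0189), a call lost without control Thap replicate 2 (-0.12, adjusted p = 0.0702), knockdown Thap replicate 1 (-0.13, 0.0544) or knockdown Thap replicate 3 (-0.09, 0.157). Over 20 alternatives its adjusted p ran from 0.00246 to 0.956.

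Atf2 (chromosome 2, ENSMUSG00000027104, 73816509 to 73892639, minus strand) was at 65.4 to 72.6 CPM in control DMSO and 66.8 to 67.1 CPM in knockdown DMSO libraries. With thapsigargin it was at 102 to 104 CPM in control and 97.8 to 102 CPM in knockdown libraries, so that both treatments showed overlapping populations. It rose by 0.58 (SE 0.05, adjusted p = 3.99e-13 by edgeR) in control and by 0.58 (SE 0.05, adjusted p = 7.16e-13) in knockdown cells. The difference was 0.0014 with a 95% interval of -0.13 to 0.14 (adjusted p = 0.997). The knockdown effect was -0.04 in DMSO (95% interval -0.14 to 0.05, adjusted p = 0.479) and -0.04 with thapsigargin (95% interval -0.13 to 0.05, adjusted p = 0.463), and the sign of the latter turned (0.092) when libraries were scaled by their totals alone. Atf7 (chromosome 15, ENSMUSG00000099083, 102525946 to 102625464, minus strand) shares 11.7% of exon bases with Gm28047, a gene model of the same strand that held 0 reads. It was at 67.7 to 76.8 CPM in control DMSO and 52.3 to 57.0 CPM in knockdown DMSO, and at 84.8 to 92.8 CPM in control Thap and 67.2 to 75.2 CPM in knockdown Thap. The knockdown lowered Atf7 in both treatments, to 74.4% of control in DMSO (-0.43, SE 0.06, adjusted p = 1.10e-07) and 79.0% with thapsigargin (-0.34, SE 0.06, adjusted p = 2.72e-06). The latter effect was -0.21 (adjusted p = 0.0025) with library totals alone. Thapsigargin raised it by 0.28 (SE 0.05, adjusted p = 2.31e-05) in control and 0.37 (SE 0.06, adjusted p = 6.61e-07) in knockdown cells. Its rises did not differ beyond the threshold (0.09, 95% interval -0.07 to 0.25, adjusted p = 0.424).

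Batf3, known as a factor of dendritic cell development, was close to the limit of detection. Its gene (ENSMUSG00000026630, chromosome 1, 191097847 to 191108945, plus strand) lies 61.4 kb from Atf3. The 3 libraries of control DMSO held 2 reads in all and those of knockdown DMSO 3 reads. With thapsigargin the control group held 45 reads and the knockdown group 27 reads, or 0.322 to 0.450 CPM and 0.194 to 0.353 CPM. The ratio of Thap to DMSO was 20.7 in control cells, with an exact 95% counting interval of 5.41 to 176, and 9.04 in knockdown cells, with an interval of 2.78 to 46.6. These intervals cover counting error only. Both rises passed (adjusted p = 8.01e-06 and 0.000637 by edgeR). Batf3 was tested only because its thapsigargin libraries passed the filter on low counts, so these p-values are not separate from that filter. The knockdown ratio was 0.684 with thapsigargin (interval 0.408 to 1.13, adjusted p = 0.320), and no difference between the cell populations was detectable at this depth.

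Counted over the members, 9 of 9 rose with thapsigargin in control cells and 9 of 9 in knockdown cells, each time with no overlap of groups. Batf3 is among these 9. With 2 and 3 reads in its DMSO groups it passed the filter on low counts only through thapsigargin libraries. Its rise and lack of overlap are therefore not separate from that filter. Of all genes tested, 74.7% were called in control cells (37.7% higher and 37.0% lower) and 69.8% in knockdown cells (35.4% higher and 34.4% lower). Groups did not overlap for 77.1% and 71.4% of genes. The members' median change was 1.35 in control and 1.37 in knockdown cells, against -0.00035 and 0.0011 over all genes. With the knockdown in DMSO 2 members rose (Atf4 and Atf3), 2 fell (Atf5 and Atf7) and 5 did not pass, where 51.5% of all genes were called (25.0% higher and 26.5% lower) and 57.1% had no overlap. The count of 4 in 9 is near that background, and the members' median was 0.05 against 0.00 over all genes. With the knockdown under thapsigargin 0 members rose, 7 fell and 2, Atf2 and Batf3, did not pass, with a median of -0.47 against 0.016. Of all genes 56.9% were called there, 28.5% higher and 28.4% lower, and 62.1% had no overlap. Scaled by library totals alone, 66.6% of the calls in that comparison were higher, against 50.1% here. For the difference of the thapsigargin effects 5 members were called lower (Atf4, Atf3, Ddit3, Jdp2 and Atf1), 1 higher (Atf5), and 3 did not pass (Atf2, Atf7 and Batf3), with a median of -0.38 against 0.013. The background was 35.3% called, of which 17.7% of all genes were lower and 17.6% higher. With library totals alone 75.5% of these calls were higher, against 49.9% here. These comparisons share groups of libraries, so their counts are not independent of each other.

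**Figure D2:**
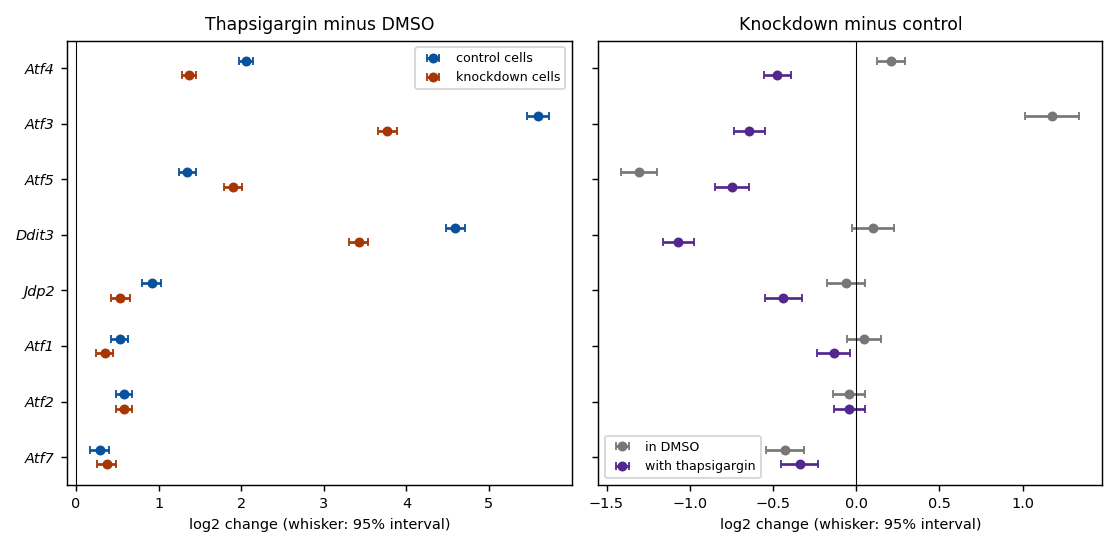
Log2 change of 8 members (y axis, Batf3 left out) with its 95% interval, for thapsigargin against DMSO in control and knockdown cells (left) and for knockdown against control in each treatment (right), with 0 as no change. The knockdown points lie left of the control points for Atf4 (1.37 and 2.05), Atf3 (3.77 and 5.59) and Ddit3 (3.42 and 4.59) and right of it for Atf5 (1.91 and 1.35).

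Levels of different genes were compared per kb of exon sequence that no other gene shares. On this scale control DMSO cells held 180 ± 4.94 CPM per kb of Atf4, 98.4 ± 4.43 of Atf5, 49.7 ± 1.59 of Jdp2 and 26.7 ± 1.06 of Atf1. Ddit3 followed with 11.0 ± 0.337, Atf2 with 8.59 ± 0.452, Atf7 with 7.59 ± 0.534 and Atf3 with 2.19 ± 0.0310 CPM per kb. In control Thap cells Atf4 was highest (746 ± 7.83), followed by Ddit3 (266 ± 4.24) and Atf5 (251 ± 11.0), then Atf3 (105 ± 2.04) and Jdp2 (93.6 ± 5.71 CPM per kb). The order of Ddit3 and Atf5 there depends on the length used, since with all exon bases, an alternative chosen after seeing the data, they were at 237 ± 3.78 and 240.3 ± 10.6 CPM per kb. Ddit3 and Atf3 stood above Jdp2 with either length. In knockdown Thap cells Atf5 (149 ± 8.31) stood above Ddit3 (127 ± 6.87) with either length, and Jdp2 (69.2 ± 1.75) and Atf3 (67.5 ± 1.03) were side by side. Atf4 made up 46.8%, 49.0%, 58.8% and 53.4% of the summed level of the members in control DMSO, control Thap, knockdown DMSO and knockdown Thap. The share of Ddit3 was 2.87%, 17.5%, 3.34% and 12.6% in that order, and that of Atf5 25.6%, 16.5%, 11.3% and 14.9%. Exon lengths take all annotated transcripts together, so a gene that uses a short isoform appears too low on this scale.

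**Figure D3:**
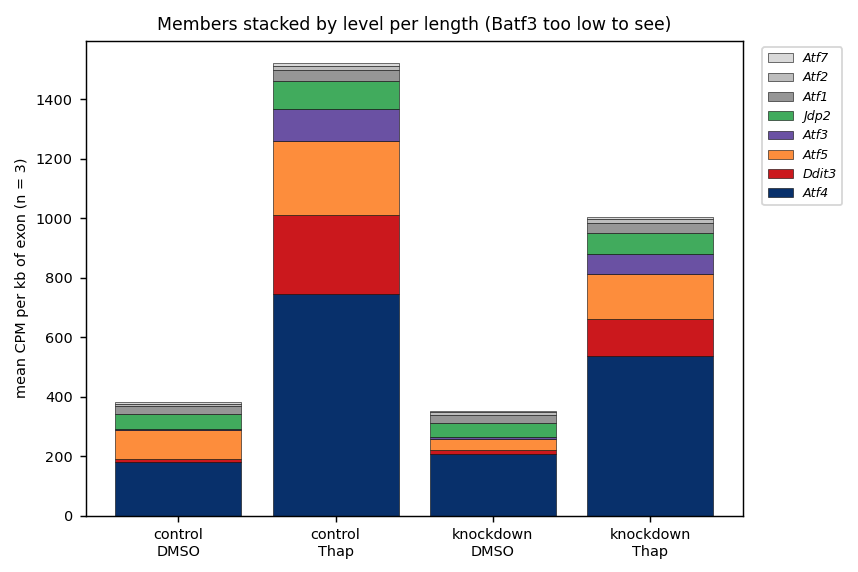
Mean level per kb of exon (y axis, linear from 0, n = 3 libraries) of 8 members stacked for the 4 groups (x axis), with Batf3 too low to be seen. Atf4 is the largest block in each group, from 180 in control DMSO to 746 CPM per kb in control Thap cells.

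Set against Cebpg per kb, Atf4 mRNA was 18.4 ± 1.86 times as abundant in control DMSO libraries (range 16.3 to 20.0) and 19.2 ± 0.296 times in control Thap libraries (18.9 to 19.5). The ranges overlapped, since both genes rose about alike, Cebpg 3.95-fold. In the knockdown the ratio was 260.0 ± 47.1 in DMSO and 528 ± 40.7 with thapsigargin. The ratio of Ddit3 to Cebpg was 1.13 ± 0.131 in control DMSO and 6.83 ± 0.0265 in control Thap libraries, and 124.8 ± 15.4 in knockdown Thap libraries. Atf3 was 1.22% ± 0.0209 of Atf4 per kb in control DMSO and 2.38% ± 0.228 in knockdown DMSO cells. With thapsigargin these shares were 14.1% ± 0.220 and 12.6% ± 0.233.

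The genes most like a member were sought by the root mean square difference of log2 CPM over the 12 libraries, each gene centred on its own mean, among 10193 genes with a mean of at least 5 CPM. For Atf4 these were Sqstm1, which encodes the autophagy receptor p62 (difference 0.0636), Nucb2 (0.112) and Isg20 (0.114). Sqstm1 rose by 2.01 in control and 1.34 in knockdown cells, beside 2.05 and 1.37 for Atf4. For Ddit3 they were Herpud1, of ER-associated degradation (0.142), Chac1, which degrades glutathione (0.142), and Gadd45a (0.356). Chac1 rose by 4.41 and 3.39, beside 4.59 and 3.42 for Ddit3. For Atf5 they were Trabd (0.162), Snai2 (0.166) and Ebf1 (0.194). Snai2 is a transcription factor of mesenchymal cells and Ebf1 one of the B cell and adipocyte lineages. No gene came as close to Atf3, where the nearest were Usp17la (0.366), Rab15 (0.493) and Herpud1 (0.494). Usp17la has close paralogs, so its reads are uncertain. Rab15 was at 0.106 CPM in control DMSO and 0.291 CPM in knockdown DMSO cells, near the 0.1 CPM added before the log2. Its knockdown effect with thapsigargin was 0.15, beside -0.64 for Atf3. These values describe likeness over the same libraries and carry no test.

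The list of ATF4 targets, like the members and the other lists, was chosen with earlier results of these data known. Its counts describe the list and are no independent support. Of 26 genes known as targets of ATF4, 26 rose, 0 fell and 0 did not pass with thapsigargin in control cells, with a median of 2.35. In knockdown cells 25 rose, 0 fell and 1, Slc38a2, did not pass, with a median of 1.29. With thapsigargin the knockdown lowered 26 of 26, with a median of -1.24 against 0.016 over all genes. Compared between the populations, the effect was called higher in 0, lower in 23, and 3 did not pass (Trib3, Fgf21 and Adm2), with a median of -0.94. The SE of this difference was 0.96 for Fgf21 and 0.51 for Adm2, genes with low levels in DMSO. The largest falls with the knockdown under thapsigargin were those of Cth, which makes cysteine, from 99.8 ± 2.51 to 7.35 ± 0.799 CPM (-3.76, SE 0.07), and of the mitochondrial enzyme gene Pck2, from 317 ± 3.88 to 45.1 ± 1.01 CPM (-2.81, SE 0.06). Sesn2, a brake on mTOR signalling, rose from 34.0 ± 2.03 to 184 ± 12.5 CPM in control and from 44.7 ± 2.26 to 76.8 ± 4.28 CPM in knockdown cells. Trib3, a pseudokinase gene, rose by 4.95 in control and 4.75 in knockdown cells. The stress hormone gene Fgf21 rose from 0.163 ± 0.0586 to 30.6 ± 2.15 CPM in control cells and reached 4.94 ± 0.860 CPM in knockdown Thap cells. Fgf21 and Vldlr, another gene of this list, passed the filter on low counts only through their thapsigargin libraries. Their rises are not separate from that filter. In DMSO the knockdown raised 3 of these genes and lowered 16, and 7 did not pass, with a median of -0.43, where 25.0% of all genes were called higher and 26.5% lower. For the comparisons before it, the shares of all genes were 37.7% higher with thapsigargin in control cells, 35.4% higher in knockdown cells, 28.4% lower with the knockdown under thapsigargin and 17.7% lower for the difference. The largest rises with the knockdown in DMSO were those of Gdf15, a stress cytokine (0.91, SE 0.06), and Phgdh, of serine synthesis (0.41, SE 0.05). In that comparison Pck2 (-1.86, SE 0.06) and the hormone gene Adm2 (-1.79, SE 0.41) fell most. Adm2 was low there, at 0.634 ± 0.252 CPM in control DMSO and 0.177 ± 0.133 CPM in knockdown DMSO cells.

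**Figure D4:**
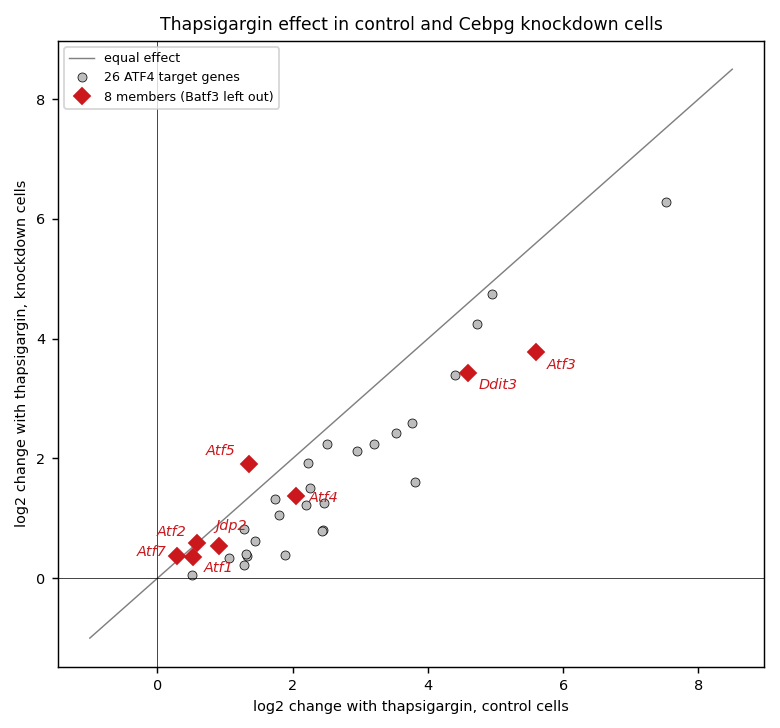
Log2 change with thapsigargin in control cells (x axis) and in knockdown cells (y axis) for 26 ATF4 target genes (circles) and 8 members (diamonds, Batf3 left out), with the line of equal effect. Atf3, Ddit3, Atf4, Jdp2 and Atf1 lie below the line, Atf5 lies above it, and Atf2 lies on it at 0.58 in both cell populations.

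Of 7 genes known as targets of CHOP, of which Trib3 and Chac1 are also in the ATF4 list, 5 rose, 1 fell and 1 did not pass with thapsigargin in control cells, with a median of 3.99. Bcl2l11, which encodes the pro-apoptotic protein BIM, fell there (-0.71, SE 0.06). Tnfrsf10b, which encodes a death receptor, stayed at 49.1 ± 1.54 CPM against 47.2 ± 2.25 CPM in DMSO and did not pass. In knockdown cells 5 rose and 2 fell, Bcl2l11 (-0.79, SE 0.06) and Tnfrsf10b (-0.15, SE 0.05). With thapsigargin the knockdown raised 1, Tnfrsf10b (0.64, SE 0.05), and lowered 6, with a median of -1.23. The carbonic anhydrase gene Car6 was at 0.453 ± 0.0337 CPM in control DMSO and 0.0510 ± 0.0458 CPM in knockdown DMSO cells, the latter near the limit of detection. With thapsigargin it was at 131 ± 6.01 CPM in control and 0.783 ± 0.239 CPM in knockdown cells. The ER oxidase gene Ero1l fell from 653 ± 19.9 to 134 ± 3.44 CPM (-2.28, SE 0.05). The difference of effects was called lower for 5 and higher for 0, and 2 did not pass (Trib3 and Bcl2l11), with a median of -1.02. In DMSO the knockdown raised 2, Tnfrsf10b (0.85, SE 0.05) and Ppp1r15a (0.72, SE 0.06), and lowered 3, and 2 did not pass (Ero1l and Chac1). Of all genes 51.5% were called in that comparison, 56.9% with the knockdown under thapsigargin, 74.7% with thapsigargin in control cells, 69.8% in knockdown cells and 35.3% for the difference.

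Of 11 genes that act before ATF4, namely eIF2alpha kinases and phosphatase subunits, translation factors and ubiquitin ligase subunits, 6 rose, 2 fell and 3 did not pass with thapsigargin in control cells, with a median of 0.28. In knockdown cells 6 rose, 4 fell and 1, Btrc, did not pass, with a median of 0.14. Eif2ak3, which encodes PERK, rose from 37.0 ± 0.886 to 79.0 ± 0.618 CPM in control cells (1.09, SE 0.05) and from 32.3 ± 1.16 to 58.8 ± 1.08 CPM in knockdown cells (0.86, SE 0.05). Ppp1r15a, whose product GADD34 guides a phosphatase to eIF2alpha, rose from 40.3 ± 1.43 to 639 ± 64.7 CPM in control cells and from 66.4 ± 5.26 to 185 ± 1.55 CPM in knockdown cells. The difference of effects was -2.51 for Ppp1r15a (SE 0.08) and -0.29 for Ppp1r15b, its constitutive relative (SE 0.06). It was called lower for 5 of the 11 and higher for 1, Btrc (0.51, SE 0.09), a ligase subunit that marks ATF4 for degradation. With the knockdown under thapsigargin 2 rose, 8 fell and 1, Eif2s1, did not pass, with a median of -0.26. In DMSO 3 rose, 5 fell and 3 did not pass. Of all genes 56.9% were called with the knockdown under thapsigargin and 51.5% in DMSO. The shares were 74.7% and 69.8% for thapsigargin in control and knockdown cells, where 8 and 10 of the 11 were called, and 35.3% for the difference. With the knockdown in DMSO Eif2ak4, the kinase GCN2, fell (-0.59, SE 0.06) and Denr, a factor of translation reinitiation, rose (0.58, SE 0.06).

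Among 23 genes of the wider leucine zipper family that can pair with or resemble the members, 20 were tested, and Cebpe, Jund and Batf2 were not. With thapsigargin in control cells 14 rose, 3 fell and 3 did not pass, with a median of 0.44. Batf is among the 14, at 0.221 ± 0.119 CPM in control DMSO and 0.562 ± 0.0709 CPM in control Thap cells. It passed the filter on low counts only through its thapsigargin libraries, so its rise is not separate from that filter. In knockdown cells 12 rose, 3 fell and 5 did not pass, with a median of 0.45. The repressor gene Nfil3 rose from 30.9 ± 0.720 to 195 ± 8.39 CPM in control cells (2.66, SE 0.05) and from 23.4 ± 0.993 to 136 ± 7.82 CPM in knockdown cells (2.54, SE 0.05). Cebpa, a differentiation factor, fell in control cells from 25.2 ± 0.659 to 6.31 ± 0.766 CPM, and was at 4.12 ± 0.667 CPM in knockdown DMSO cells. With the knockdown in DMSO 7 rose, 11 fell and 2 did not pass (Fosl2 and Batf), with a median of -0.20. Fosb rose most, from 2.81 ± 0.515 to 19.3 ± 3.57 CPM (2.78, SE 0.16), and Fos rose from 9.33 ± 0.967 to 24.9 ± 2.28 CPM (1.41, SE 0.09), both immediate early genes. With the knockdown under thapsigargin 7 rose, 7 fell and 6 did not pass, with a median of -0.02, where 28.5% of all genes were called higher and 28.4% lower. The shares of all genes called were 51.5% for the knockdown in DMSO, 74.7% and 69.8% for thapsigargin in control and knockdown cells and 35.3% for the difference. With the knockdown under thapsigargin Fosl2 rose from 111 ± 3.91 to 232 ± 4.76 CPM (1.06, SE 0.05). Cebpb, which encodes an activator of the stress response, fell from 91.5 ± 15.2 to 55.5 ± 3.52 CPM (-0.72, SE 0.08), and Nfe2l1, which supports proteasome gene expression, fell from 981 ± 22.3 to 629 ± 24.6 CPM (-0.64, SE 0.04). The difference of effects was called higher for 6 and lower for 8, and 6 did not pass, with a median of -0.11. Cebpa (2.20, SE 0.16) and Maf (1.13, SE 0.18) led the former, Fos (-0.82, SE 0.13) and Fosb (-0.78, SE 0.22) the latter.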

How the data were processed

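The authors deposited raw read counts per gene for 12 libraries, 1 file each. Per the labels' protocols poly(A) RNA was fragmented and made into libraries. The submitters' processing notes name Trim Galore, STAR 2.5.3a, bedtools 2.31.0, DESeq2 and the builds mm10 and hg38. Counter, annotation and strand setting: not given in the sources used here. Reads on shared or antisense exons are thus uncertain. Each file held 53801 gene identifiers and 5 entries that name no gene, left out here, with 13.32% to 14.61% of reads. One of these entries, the reads listed as ambiguous, made up 6.47% to 6.88% of all reads. Of the identifiers 53706 matched GENCODE vM21 (GRCm38) and 95 did not.

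Tests used edgeR 4.0.16 (R 4.3.3) with TMM scaling (factors 0.967 to 1.073) and its default filter on expression. A robust quasi-likelihood model held all 4 groups and left 8 residual degrees of freedom. Of the identifiers 37973 were not tested. P-values were adjusted over all 15828 genes tested after Benjamini and Hochberg, and a gene was called at an adjusted p under 0.05. Each SE is approximate, taken as the size of the log2 change over the root of its F value. The fit was run on simulated counts, with changes of random direction in a small set of genes of the knockdown Thap group only. In these data 35.3% to 74.7% of genes were called, so that run does not show how the scaling behaves here. Alternatives used DESeq2 1.42.0, limma 3.58.1 (voom), other scalings and filters, only the groups compared, a replicate block and leaving out each library. Likeness of patterns added 0.1 CPM before the log2.

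The members and lists were chosen with earlier results of these data known. Named were the members, and of each list up to 2 of the largest rises and falls per comparison, besides the 3 genes most like Atf4, Atf3, Atf5 and Ddit3. Genes named as not passed, and Batf and Vldlr, named for their low counts, were chosen after their values were seen. Python 3.11.15, pandas 2.3.3 and matplotlib 3.10.9 were used.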

Additional observations from a re-analysis of the deposited data

Results flagged for a closer look

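The thapsigargin effect differed between knockdown and control cells, by edgeR's test of the difference itself, for 6 of the 9 members, where 35.3% of all genes tested were called. The log2 difference, knockdown minus control, was -1.82 for Atf3, -1.17 for Ddit3, -0.68 for Atf4, -0.38 for Jdp2 and -0.18 for Atf1. It was 0.56 for Atf5. In each of these genes all 3 libraries of the knockdown Thap group lay on the same side of all 3 control Thap libraries. Of all genes tested 62.1% had no overlap in that comparison. For Atf1 the gap was narrow, with the highest knockdown Thap library at 115.4 CPM and the lowest control Thap library at 115.6 CPM. Scaled by library totals alone, these Atf1 groups overlapped. For Atf4, Atf3 and Atf5 the knockdown DMSO libraries also lay apart from the control DMSO libraries, where 57.1% of all genes had no overlap. No group was large enough for a test of single outlying libraries.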

How the results depend on the processing

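The number of genes called stayed within 1.5 times the main number under every alternative run, with 20 for each comparison and 19 for the difference of effects. Leaving out 1 library gave 7337 to 8283 genes for the knockdown in DMSO, 8314 to 9219 for the knockdown with thapsigargin, 11526 to 12129 for thapsigargin in control cells, 10579 to 11268 in knockdown cells and 5062 to 5448 for the difference. Where a left-out library leaves a group with 2, its spread is shared with the others. Replicate numbers did not pair the samples: deviations from group means correlated by -0.03 to 0.08 over 18 same-number pairs and by -0.08 to 0.08 over 36 others. With a replicate block the counts were 8279, 9109, 11854, 11117 and 5770, and no call of a member changed. Scaling by library totals alone moved the median of all genes by 0.13 for the knockdown with thapsigargin, 0.12 for thapsigargin in knockdown cells and 0.16 for the difference. The share of calls that were higher then went from 50.1% to 66.6%, from 50.8% to 60.4% and from 49.9% to 75.5%. Under it the Atf1 knockdown effect with thapsigargin was -0.0036 and the Atf1 difference -0.02, both no longer called, and the Atf2 and Atf7 differences were called (0.16 and 0.25). The same scaling turned the sign of the Atf2 knockdown effect with thapsigargin (0.092). The Atf2 difference turned to -0.00768 with median-of-ratios factors, -0.00761 with DESeq2 and -0.017 with at least 1 CPM in 3 libraries, and ranged from -0.039 to 0.020 when 1 library was left out. Batf3 in DMSO ran from -0.33 to 1.13 without 1 library. With no filter the 2 Atf1 calls were lost as well (adjusted p = 0.0548 and 0.122). All calls of Atf4, Atf3, Atf5 and Ddit3 held in every alternative, and none of these 4 changed direction. With library totals alone the Jdp2 difference was -0.22 and the Atf7 knockdown effect with thapsigargin -0.21, both still called. With length taken from all exon bases, chosen after seeing the data, the level of Ddit3 minus that of Atf5 in control Thap cells turned to -3.62 CPM per kb. Depth limits Batf3 alone among the members.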
